A study of Mus musculus with 50 samples.

Results

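The genes described are 10 members of the growth hormone (GH) and insulin-like growth factor (IGF) axis in mouse liver: the receptor Ghr, the signal transducer Stat5b, the secreted products Igf1 and Igfals, the binding proteins Igfbp1, Igfbp2 and Igfbp3, the feedback inhibitors Socs2 and Cish, and the repressor Bcl6. They were listed by name, with earlier results of these data known. All 10 of the 12185 genes in the expression table were present, and all 10 had a mean value of at least 1 and entered every test. The values came from 50 RNA-seq libraries of the livers of male mice. The mice were N2 offspring, bred from F1 mice with a B6.A4 parent and F1 mice with a B6.A6 parent, the other parent of each F1 being C57BL/6J (B6), so that A/J alleles segregated on chromosomes 4 and 6 while the rest of the genome was B6, and none of the 10 members lies on those chromosomes. They were 5 weeks old and fasted overnight, the caudate lobe was collected, and none received a treatment, although the deposited labels call the animals F2 and adult. The libraries formed 1 condition, and the genotypes of the animals were not used here, so the measurement is the spread between livers and the way the members varied together.

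Pituitary GH acts on the hepatocyte through GHR, which activates the kinase JAK2 and then the transcription factor STAT5B. STAT5B raises transcription of Igf1 and Igfals, whose products circulate in a complex with IGFBP3, and of Socs2 and Cish, whose products damp the same signal. Male rodents secrete GH in pulses and females more continuously, and many liver genes follow this difference. IGFBP1 and IGFBP2 bind IGF1 outside that complex. Igfbp1 is repressed by insulin and is raised in fasting, and BCL6 is a repressor that binds many of the sites that STAT5 binds.

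The unit of every value is CPM, the read count of a gene relative to the reads of its library, after scaling between libraries by the authors. Dividing by the value of 1 read gave whole reads in 100% of values within 0.01 reads, and the libraries held 11965594 to 29976557 counted reads, with a median of 13620584. A count of 3 reads corresponded to 0.0951 to 0.259 in this unit, below the lowest value of each member. Libraries are named by the number in their title, which also holds a second number read here as that of the animal. The labels do not explain that second number. The 50 libraries carry 48 distinct animal numbers, because libraries 8 and 10 share a number, as do libraries 22 and 55. Each library was treated as 1 liver, and p-values measure the spread between these libraries only. Library 24 stood apart, with the lowest summed level of 17 male-type liver genes (4515, where the other libraries reached up to 27225 and the median was 17129), so results were also computed without it.

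Ghr, the receptor, lies on chr15:3317760-3583492 (minus strand, GRCm38). Its value ran from 133.1 to 301 with a median of 225, and its mean was 224 ± 46.6 (SD, n = 50). The coefficient of variation (CV) was 20.8%. Among the 200 genes of most similar mean value, 85% had a lower CV, and only 0.699% of the variance between libraries was counting error. The lowest and highest livers therefore differed 2.26-fold, with the others spread between them. Stat5b, on chr11:100780731-100850724 (minus strand), was the steadiest member at 44.1 ± 4.87 (SD, n = 50), from 35.7 to 54.2, a 1.52-fold range. Its CV of 11.05% was higher than that of only 48% of the 200 nearest genes, and counting error made up 12.6% of its variance, the largest such share of the 10. Stat5b is similar in sequence to Stat5a, with which reads could be confused.

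Igf1, the growth factor that the liver releases into blood, lies on chr10:87858265-87937042 (plus strand). It ran from 235 to 425 with a median of 312, and its mean was 317 ± 46.8 (SD, n = 50). Its CV of 14.8% stood above that of 60.5% of its 200 nearest genes, so Igf1 was an ordinary gene in this respect. Igfals encodes the acid-labile subunit that holds IGF1 and IGFBP3 in the circulating complex, and lies on chr17:24865997-24882010 (plus strand). Igfals ran from 22.6 to 80.9 with a median of 47.6, and its mean was 49.1 ± 12.6 (SD, n = 50). Its CV was 25.7%, above that of 94.5% of the 200 nearest genes. Across livers Igfals thus varied 3.58-fold and Igf1 1.81-fold.

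Igfbp1, on chr11:7197782-7202546 (plus strand), was the most variable of the secreted proteins. Its value ran from 45.2 in library 31 to 768 in library 22, with a median of 142 and a mean of 185 ± 125.7 (SD, n = 50). The next highest library after library 22 stood at 411. Counting error was 0.0796% of the variance, and the CV of 67.8% exceeded that of 99% of the 200 nearest genes. Igfbp2, on chr1:72824503-72852474 (plus strand), ran from 306 to 1030 with a median of 607 and a mean of 607 ± 139 (SD, n = 50). Library 31 was also the lowest for Igfbp2. Igfbp3, which the liver makes mainly in cells other than hepatocytes, lies on chr11:7206086-7213923 (minus strand), beside Igfbp1. Igfbp3 ran from 9.17 to 36.8 with a median of 16.9 and a mean of 18.02 ± 5.98 (SD, n = 50), and library 22 was again the highest, with the next at 27.9. In whole liver, fewer cells of a type and less RNA per cell cannot be told apart.

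Socs2, an inhibitor of GH receptor signalling, lies on chr10:95385362-95417180 (minus strand). It ran from 1.603 to 17.1 with a median of 4.18 and a mean of 5.86 ± 3.95 (SD, n = 50), on 23 to 263 reads per library. Cish, the related inhibitor that STAT5 induces, lies on chr9:107296026-107302784 (plus strand). Cish ran from 0.878 to 10.2 with a median of 3.30 and a mean of 3.67 ± 2.16 (SD, n = 50), on at least 11 reads per library. Although Socs2 and Cish had the fewest reads of the members, only 2.55% of the variance of Socs2 and 5.35% of that of Cish was counting error. Bcl6, on chr16:23965052-23988852 (minus strand), ran from 3.63 in library 15 to 64.4 in library 40, with a median of 25.5 and a mean of 27.2 ± 17.2 (SD, n = 50). This was a 17.7-fold range, the widest of the 10, and its CV of 63.0% exceeded that of each of its 200 nearest genes. The CVs of Socs2 (67.4%) and Cish (58.8%) stood above 98% and 98.5% of theirs, whereas the median CV of all genes was 17.2%. Genes on the opposite strand overlap Igf1 (Igf1os), Cish (Gm17040 and Gm17041) and Bcl6 (Gm37419), and the libraries were made with a stranded kit, but the strand setting used in counting is not given in the sources used here.

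**Figure D1:**
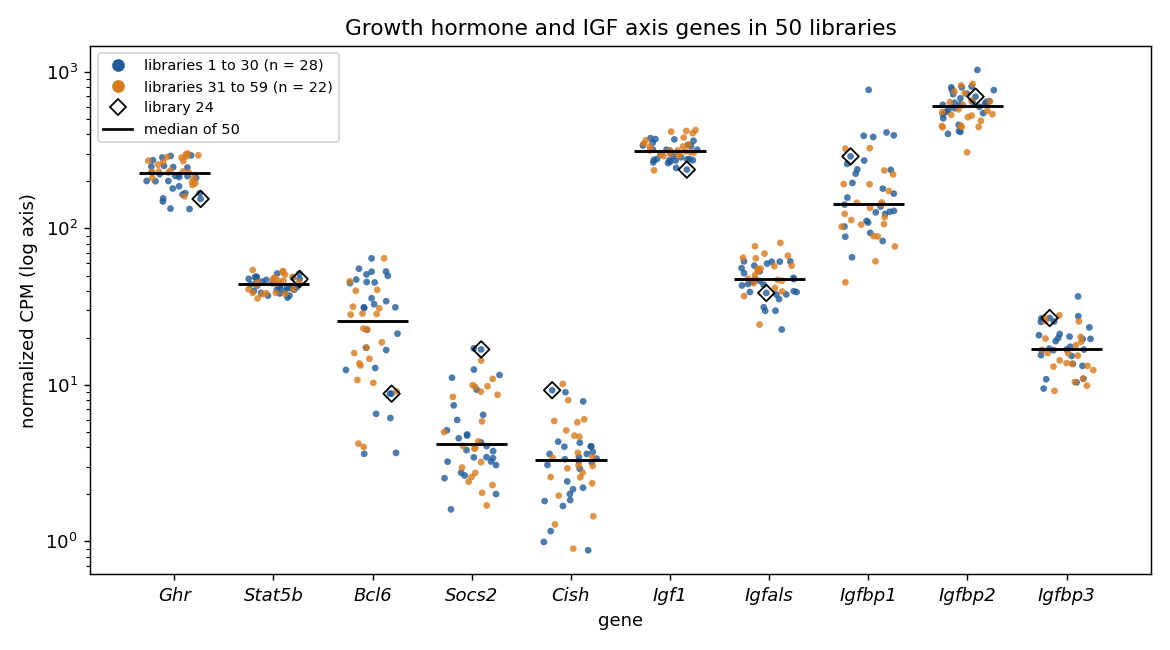
Normalized value (CPM scaled between libraries, log axis) of each of the 10 members in 50 libraries, 1 point per library, with libraries numbered 1 to 30 and 31 to 59 in different colours and a bar at the median. Igfbp1, Socs2, Cish and Bcl6 spread over 10-fold or more, whereas Stat5b stayed between 35.7 and 54.2.

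Per kilobase of annotated exon, the mean levels fell in the order Igfbp2 (329), Igfbp1 (122), Igf1 (32.01), Ghr (24.8), Igfals (15.5), Stat5b (7.96), Igfbp3 (5.76), Bcl6 (4.07), Socs2 (0.615) and Cish (0.571). Of the 9 neighbouring pairs in this order, 3 differed by more than 2 SD of their paired log2 difference within libraries: Igfbp2 and Igfbp1, Ghr and Igfals, and Igfals and Stat5b. Igf1 was above Ghr in 47 of 50 libraries, but with the longest annotated transcript as the length Ghr (53.7) stood above Igf1 (44.96). Socs2 and Cish did not differ beyond their spread, with Socs2 higher in 28 of 50 libraries.

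RefSeq promoter windows (GRCm38.p6, 250 bases before to 50 bases after a start site) were matched for 9 of the 10 members, 15 windows in all, the unmatched member being Socs2. The letters TTCNNNGAA, which STAT5 recognises and which read the same on both strands, stood in 5 windows of 3 members, Cish, Bcl6 and Igfals, against 8.30% of all 32851 windows. The stretches are shown because these members varied widely or moved together, with each TTCNNNGAA match in capitals. The fourth, of Igfbp1, shows in capitals the CAAAACA core of its insulin response element, which 6.28% of all windows hold on either strand.

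Cish, chr9:107296655-107296683 (plus strand), matches from +1 to +9 and from +12 to +20 of the start site: agttTTCCTGGAAagTTCTTGGAAatctg

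Igfals, chr17:24878081-24878214 (plus strand), match from -58 to -50: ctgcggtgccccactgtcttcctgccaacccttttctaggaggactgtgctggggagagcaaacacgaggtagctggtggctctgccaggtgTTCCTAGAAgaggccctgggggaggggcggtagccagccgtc

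Bcl6, chr16:23981334-23981473 (minus strand), matches starting at -168, -122 and -88: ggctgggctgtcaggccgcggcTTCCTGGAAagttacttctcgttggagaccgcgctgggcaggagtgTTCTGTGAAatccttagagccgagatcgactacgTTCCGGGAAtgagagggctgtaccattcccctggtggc

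Igfbp1, chr11:7197597-7197781 (plus strand), match from -108 to -102: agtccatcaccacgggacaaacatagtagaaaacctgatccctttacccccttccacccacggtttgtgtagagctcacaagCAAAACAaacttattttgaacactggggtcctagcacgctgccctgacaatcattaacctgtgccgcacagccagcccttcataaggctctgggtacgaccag

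The first of the Cish matches, the first of the Bcl6 matches shown and the Igfals match also hold the narrower letters TTCCTNGAA, which BCL6 recognises, and which lie wholly within TTCNNNGAA. These letters stood in 1.59% of all windows on either strand. The forkhead letters GTAAACA (3.65% of all windows) were found in 1 member window, of Igfals at -242 to -236, on the opposite strand. The other Bcl6 window held 1 further TTCNNNGAA match, at -118, as did 1 of the 2 other Igfals windows, at -236. A match describes the letters in these windows and is not evidence of binding.

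To ask which members varied together, log2(value + 0.5) of every gene was fitted on that of each member with limma, and a pair of members was called when both fits gave an adjusted p below 0.05. Of the 45 pairs, 11 were called, 5 of them positive and 6 negative. They joined 6 members, Ghr, Igf1, Igfals, Igfbp1, Igfbp2 and Igfbp3, with 10 of these pairs, and Cish with Bcl6 in the remaining one. Stat5b was in no called pair and Socs2 in none. Livers with more Ghr had more Igf1 and Igfals and less Igfbp1, Igfbp2 and Igfbp3. Calls were common in these fits, so each count of members is read against the share of all genes called with the same regressor.

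**Figure D2:**
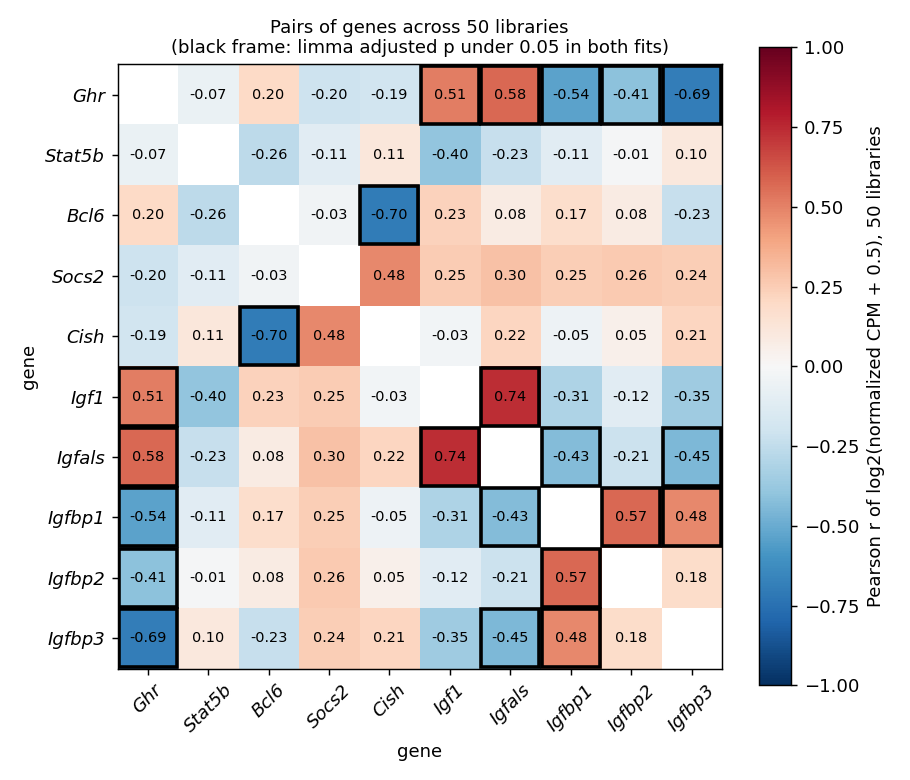
Pearson r between the log2 values of the 10 members over 50 libraries, as a coloured matrix, with the 11 called pairs marked. Ghr, Igf1 and Igfals form a positive group. Ghr and Igfals are called as negative with Igfbp1 and Igfbp3, whereas Igf1 is called with neither (r = -0.31 and -0.35). Cish with Bcl6 (r = -0.70) stands alone.

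Ghr was the member with the most genes moving beside it: 28.2% of the other 11435 genes tested were called, 14.3% higher and 13.9% lower with more Ghr. Of the 9 other members 5 were called, Igf1 and Igfals higher and Igfbp1, Igfbp2 and Igfbp3 lower. Igfbp3 had the closest relation to the receptor (r = -0.69, rho = -0.69, permutation p = 1e-05 for each, the smallest that 100000 resamples can give), and its log2 level was lower by 1.01 ± 0.149 (SE) per log2 unit of Ghr (limma adjusted p = 9.01e-07). The relation was -0.72 within libraries 1 to 30 and -0.62 within libraries 31 to 59. Without the 2 libraries farthest from the median in Ghr it was -0.67. Among all genes Igfbp3 had the 64th lowest r with Ghr.

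Igf1 rose by 0.34 ± 0.083 (SE) log2 units per log2 unit of Ghr (r = 0.51, permutation p = 0.00014, rho = 0.49, permutation p = 0.00032, limma adjusted p = 0.00164). Igfals rose more steeply, by 0.71 ± 0.142 (SE), with r = 0.58 (permutation p = 3e-05) and rho = 0.52 (permutation p = 2e-04). Both were less close within libraries 31 to 59 (r = 0.35 and 0.34) than within libraries 1 to 30 (0.51 and 0.64), a difference that was not tested. Igfbp1 was lower by 1.39 ± 0.302 (SE) per log2 unit of Ghr (r = -0.54, permutation p = 5e-05, rho = -0.53, permutation p = 0.0001). For Igfbp2 the slope was -0.44 ± 0.137 (SE) with r = -0.41 (permutation p = 0.00282) and rho = -0.39 (permutation p = 0.00501), but r was -0.53 within libraries 1 to 30 and -0.10 within libraries 31 to 59, and the call was lost with the library set as a covariate. Without the 2 libraries farthest from the median in Ghr, r was 0.48 for Igf1, 0.50 for Igfals, -0.49 for Igfbp1 and -0.38 for Igfbp2. With the animal number as a covariate Igf1 and Igfals were no longer called with Ghr.

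Igf1 and Igfals, the products that GH induces, had the highest r of the 45 pairs, 0.74 (rho = 0.73, permutation p = 1e-05 for each, the smallest possible). Igf1 was the gene most like Igfals among all 11435 others, and Igfals ranked 2 among those most like Igf1. Igfals rose by 1.36 ± 0.178 (SE) log2 units per log2 unit of Igf1 (limma adjusted p = 2.45e-06). The relation was 0.66 within libraries 1 to 30 and 0.76 within libraries 31 to 59, and 0.73 without the 2 libraries farthest from the median in Igf1. It was called in all 14 alternative analyses. With Igf1 as the regressor, 11.8% of genes were called and 3 of 9 members: Ghr and Igfals higher, and Stat5b lower (slope -0.30 ± 0.103 SE, limma adjusted p = 0.0483). Stat5b was not a called pair, since in the opposite fit the adjusted p was 0.442. Without library 24 the share of genes called with Igf1 was 6.86%. The calls were split 697 higher to 650 lower, but 290 to 512 on plain CPM.

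With Igfals as the regressor 6.56% of genes were called, and 4 of the 9 other members, Ghr and Igf1 higher and Igfbp1 and Igfbp3 lower. Igfals and Igfbp1 had r = -0.43 (permutation p = 0.00152) and rho = -0.30 (permutation p = 0.0337), and Igfals and Igfbp3 had r = -0.45 (permutation p = 0.00098) and rho = -0.34 (permutation p = 0.0177). Library 22, with the lowest Igfals (22.6) and the highest Igfbp1 and Igfbp3, bore on these pairs. Without it neither pair was called, nor was that of Igfbp1 with Igfbp3, and without library 31 Igfals and Igfbp1 were not called either. Without the 2 libraries farthest from the median in Igfals, r was -0.27 for Igfbp1 and -0.31 for Igfbp3. Within libraries 1 to 30 and 31 to 59, r was -0.45 and -0.29 for Igfals with Igfbp1, and -0.38 and -0.45 for Igfals with Igfbp3.

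Among the binding proteins, Igfbp1 and Igfbp2 rose together (r = 0.57, permutation p = 2e-05, rho = 0.55, permutation p = 9e-05). Igfbp2 was higher by 0.24 ± 0.048 (SE) log2 units per log2 unit of Igfbp1 (limma adjusted p = 0.00361), within-set r was 0.56 and 0.53, r was 0.56 without the 2 farthest libraries in Igfbp1, and the pair was called in all 14 alternatives. Igfbp2 ranked 16 among the genes most like Igfbp1. Igfbp1 and Igfbp3, neighbours on chromosome 11, had r = 0.48 (permutation p = 5e-04, rho = 0.48, permutation p = 0.00058), and r = 0.41 without the 2 libraries farthest in Igfbp1, with 0.54 and 0.32 within the sets. Igfbp2 and Igfbp3 were not called (r = 0.18, permutation p = 0.205). With Igfbp1 as the regressor 4.67% of genes and 4 of 9 members were called, with Igfbp2 15.1% of genes and 2 of 9 members, and with Igfbp3 15.4% of genes and 3 of 9 members. For Igfbp2, then, the members were called about as often as other genes. The share of genes called with Igfbp1 was 2.41% without library 22 and 2.29% without library 31. The calls with Igfbp1 were split 264 higher to 270 lower, but 400 to 208 on plain CPM, and those with Igfbp3 908 to 856, but 2179 to 409 on plain CPM.

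**Figure D3:**
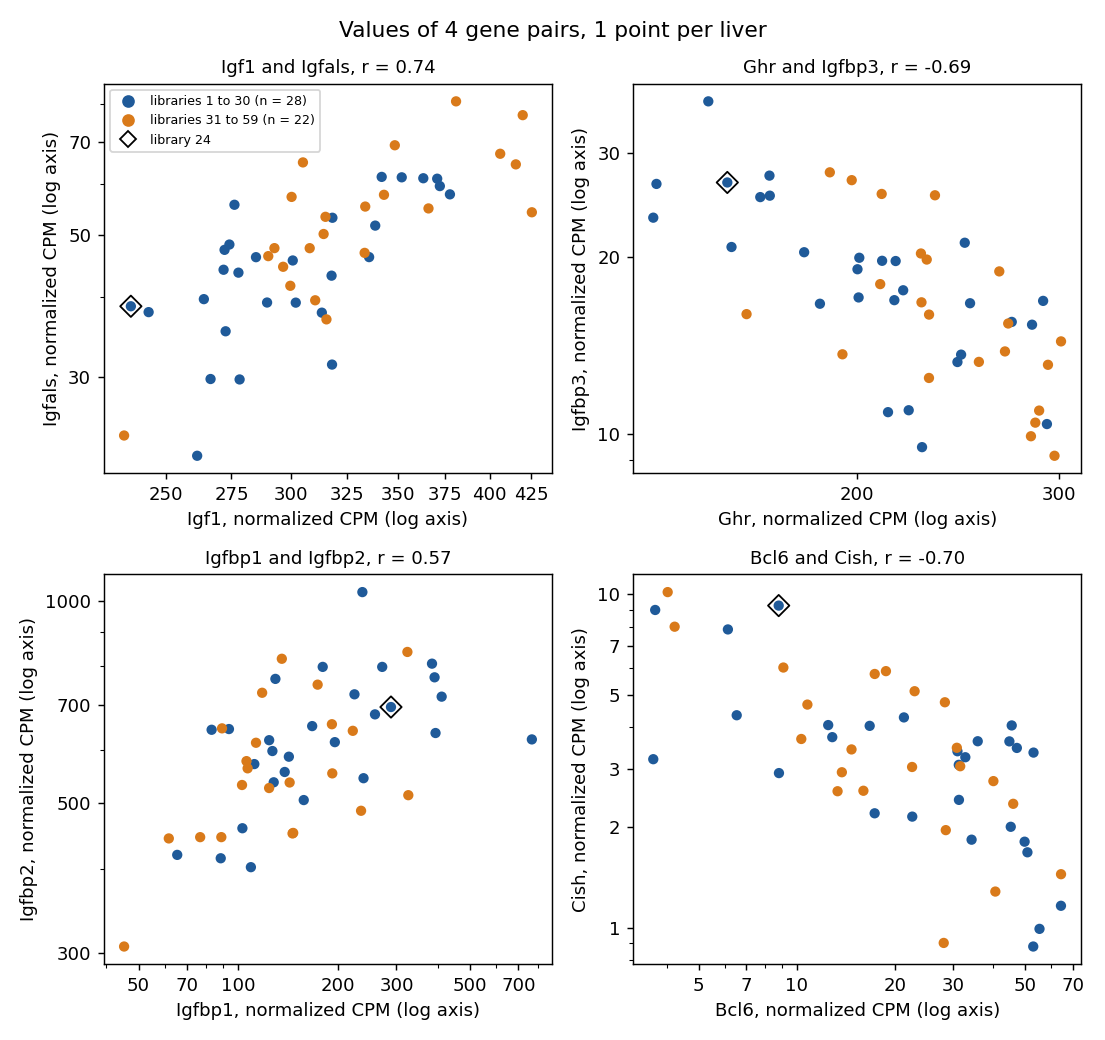
Scatter plots of the normalized values (log axes) over 50 libraries for the pairs Igf1 and Igfals, Ghr and Igfbp3, Igfbp1 and Igfbp2, and Bcl6 and Cish. Each point is 1 library, coloured by library set, and r is that of log2(value + 0.5). The points of Igf1 with Igfals rise together (r = 0.74), and those of Bcl6 with Cish fall (r = -0.70), in both sets of libraries.

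The repressor Bcl6 and the feedback inhibitor Cish moved in opposite directions. Library 40, with the highest Bcl6 (64.4), had a Cish value of 1.45, and library 29, with the lowest Cish (0.878), had a Bcl6 value of 52.9. In contrast, library 57, with the highest Cish (10.2), had a Bcl6 value of 4.02. Over the 50 libraries r was -0.70 and rho -0.64 (permutation p = 1e-05 for each, the smallest possible), and Bcl6 was lower by 1.09 ± 0.156 (SE) log2 units per log2 unit of Cish (limma adjusted p = 5.65e-05). Among all 11435 other genes Bcl6 had the lowest r with Cish, and Cish had the 12th lowest r with Bcl6. The relation was -0.68 within libraries 1 to 30 and -0.73 within libraries 31 to 59, -0.66 without the 2 libraries farthest from the median in Cish, and -0.69 without library 24, and it was called in all 14 alternatives. Calls were otherwise rare with Cish, at 0.472% of genes and 1 of 9 members, and with Bcl6 were 8.41% of genes and again 1 of 9 members. Without library 24 the share called with Cish was 0.140%. The calls with Cish were split 19 higher to 35 lower, but 145 to 37 on plain CPM.

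Socs2 and Cish, both STAT5 targets, had r = 0.48 (permutation p = 0.00049, rho = 0.47, permutation p = 0.00069). This pair passed with Socs2 as the regressor (Cish slope 0.42 ± 0.106 SE, limma adjusted p = 0.0336) but not with Cish as the regressor (limma adjusted p = 0.0545), so it was not called, and it was called in 5 of the 14 alternatives. Both were the second highest of the 50 libraries in library 24, at 16.9 and 9.25, and without it r was 0.43. Within the sets r was 0.51 and 0.44. Socs2 was not related beyond the threshold to Igf1 (r = 0.25, permutation p = 0.0796) or to Bcl6 (r = -0.03, permutation p = 0.822). With Socs2 as the regressor 1.26% of genes and 1 of 9 members were called, 81 genes higher and 63 lower, but 323 to 51 on plain CPM, and without library 24 the share of genes called was 0.551%.

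Stat5b, which carries the GH signal to the nucleus, showed few relations at the level of its mRNA. Only 0.0437% of genes, 5 in all, were called with it by limma, and 0 of the 9 other members. At an unadjusted p under 0.05 limma gave 919 genes and 1 member, and edgeR also called 5 genes and 0 members. Its r with the other members ran from -0.40 with Igf1 to 0.11 with Cish. On plain CPM the median slope of all genes on Stat5b was 0.14 and the calls were 20 higher and 0 lower, against 3 and 2 here.

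The genes most like each member were named as the extremes of r among 11435 genes, so they have no test. Ghr was most like Car3, carbonic anhydrase 3 (r = 0.94), and Aox3, an aldehyde oxidase (r = 0.87), and least like Pdlim1 (r = -0.83). Car3 ran from 37.9 to 546 over livers in which Ghr ran from 133.1 to 301. Igf1 was most like Ugt2a3, a glucuronosyltransferase (r = 0.81), and least like Crip2 (r = -0.69). Igfals followed Lrrc3 (r = 0.72) after Igf1 and was least like Insig2, a regulator of sterol synthesis (r = -0.65). Igfbp1 was most like Adcy1 and Mdh2 (both r = 0.65), and Igfbp2 most like Mif (r = 0.71) and the mitochondrial pyruvate carrier gene Mpc2 (r = 0.70). Their opposites were Zfp367 (r = -0.63) for Igfbp1 and Rnf213 (r = -0.71) for Igfbp2.

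Igfbp3 was most like Sparc (r = 0.86) and Sod3 (r = 0.86), which encode secreted matrix proteins, and least like the oxidase gene Nox4 (r = -0.81). Sparc ran from 54.7 to 208 and Nox4 from 2.52 to 27.03. Socs2 was most like Acot3 (r = 0.74), an acyl-CoA thioesterase gene, and Cux2 (r = 0.71), a transcription factor gene of female liver, and least like 4833439L19Rik (r = -0.63). Without library 24 the first of these were 0.71 and 0.69. Cish was most like Ajuba (r = 0.63) and the hepatocyte factor gene Onecut1 (r = 0.61). Stat5b was most like Osgin1 and Met (both r = 0.58) and least like Rilpl2 (r = -0.61). Bcl6 was most like Tmcc1 and the glucocorticoid-induced gene Tsc22d3 (both r = 0.80) and least like Tnfaip2 (r = -0.78).

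Genes known to follow the GH secretion pattern divided along several of the same members. With Ghr, 14.3% of all genes were called higher and 13.9% lower. Of 17 tested male-type genes, which male mouse liver expresses more highly, all 17 were higher with more Ghr, with a median slope of 1.501 against -0.00358 over all genes. Among them, Mup1, which encodes a urinary protein, ran from 1.51 to 262 and rose by 3.34 ± 0.586 (SE) log2 units per log2 unit of Ghr. The steroid dehydrogenase gene Hsd3b5 rose by 3.07 ± 0.376 (SE) and the fatty acid elongase gene Elovl3 by 2.80 ± 0.431 (SE). Of 13 tested female-type genes 6 were lower with more Ghr and 0 higher, with a median slope of -0.81. Among those lower, the steroid hydroxylase gene Cyp17a1 fell by 2.91 on the log2 scale per unit of Ghr (SE 0.301). The livers with more receptor mRNA were thus those with more of the male-type transcripts.

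The same male-type list was called 17 higher and 0 lower with Igf1 (median slope 1.92, against -0.00398 over all genes) and 13 higher with Igfals (median slope 0.83). It was called 0 higher and 17 lower with Igfbp3 (median slope -1.05) and 9 lower with Igfbp1 (median slope -0.41). Of all genes, 11.8% were called with Igf1, 6.56% with Igfals, 15.4% with Igfbp3, 4.67% with Igfbp1 and 8.41% with Bcl6. Cyp7b1, an oxysterol hydroxylase gene, rose by 3.65 ± 0.663 (SE) with Igf1. With Bcl6 4 of 17 rose, among them Elovl3 (0.51 ± 0.149 SE) and Mup20 (0.37 ± 0.117 SE). None of the 17 was called with Igfbp2, Socs2, Cish or Stat5b by limma or edgeR, although 10 with Socs2, 7 with Cish, 0 with Igfbp2 and 0 with Stat5b had an unadjusted limma p under 0.05. These counts were 7 for Igfals and 5 for Igfbp1 without library 22, and 1 for Bcl6 without library 24. The number with Igfals was 0 with the animal number as a covariate, and that with Igfbp1 was 0 with the share of reads taken by the 10 highest genes (29.4% to 37.01%) as a covariate.

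**Figure D4:**
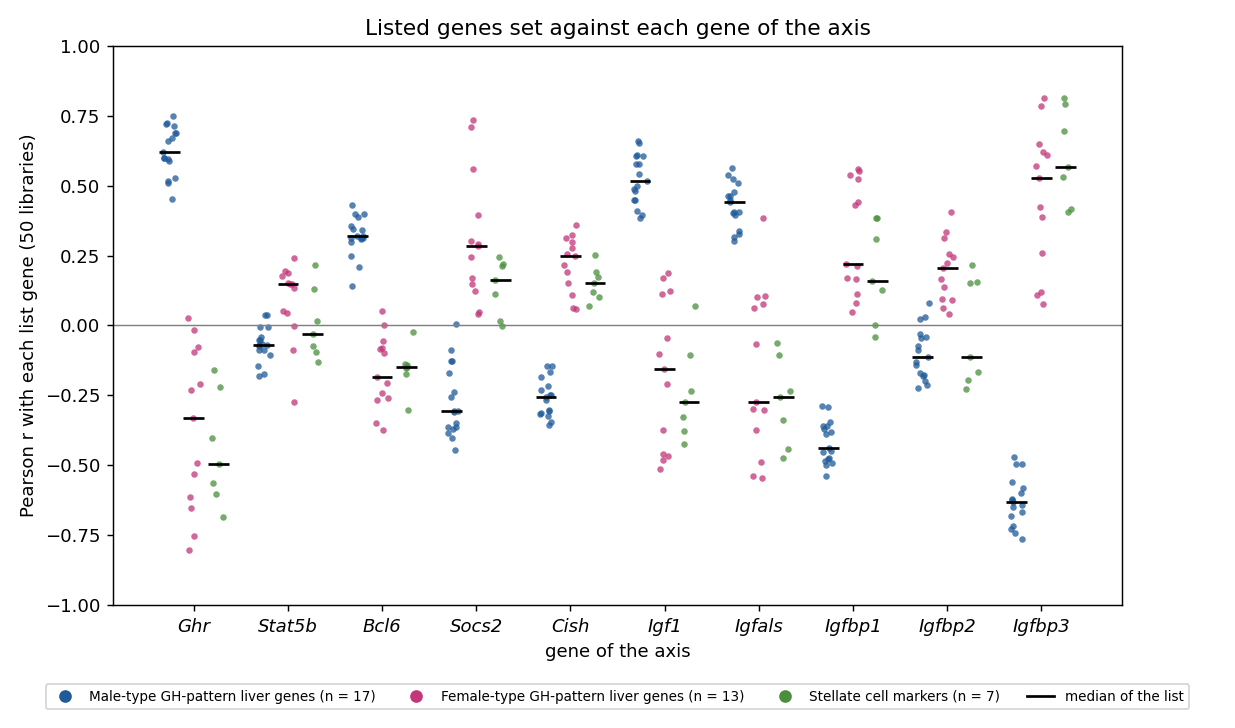
Pearson r over 50 libraries of each male-type gene (n = 17), female-type gene (n = 13) and stellate cell marker (n = 7) with each of the 10 members, 1 point per gene. The male-type genes lie between 0.45 and 0.75 with Ghr and between -0.77 and -0.47 with Igfbp3, where the stellate markers lie between 0.41 and 0.81.

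Female-type genes were called 9 of 13 higher with Igfbp3 (median slope 0.69), 6 higher with Igfbp1 (0.25), 4 lower with Igf1 (-0.32), 3 lower with Igfals (-0.25) and 1 higher with Igfbp2 (0.51). Among all genes the shares called were 15.4% with Igfbp3, 4.67% with Igfbp1, 11.8% with Igf1 and 6.56% with Igfals. They were 15.1% with Igfbp2, which the 1 of 13 did not exceed, and 1.26% with Socs2. With Igfbp3, Cyp2b9, a cytochrome P450 gene, rose by 2.67 ± 0.467 (SE). Socs2 was called with 3 of the female-type genes, all higher: Cux2 (0.93 ± 0.127 SE), Acot3 (0.89 ± 0.114 SE) and Abcd2, a peroxisomal transporter gene (0.39 ± 0.080 SE). The edgeR fit called 6 with Socs2. None was called with Cish, Stat5b or Bcl6 by limma (5, 1 and 2 at an unadjusted p under 0.05), while edgeR called 1 with Cish, 0 with Stat5b and 1 with Bcl6.

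Igfbp3 moved with markers of several cell types, hepatocytes among them, and 15.4% of all genes were called with it. All 7 stellate cell markers were higher with more Igfbp3 (median slope 0.40, against -0.00351 over all genes), led by Ecm1 (0.59 ± 0.065 SE) and the collectin gene Colec11 (0.55 ± 0.056 SE). Of 7 sinusoidal endothelial markers 4 were higher, with Lyve1, a hyaluronan receptor gene, at 0.73 ± 0.085 (SE). The other 3 endothelial markers were not called, although 6 of the 7 had an unadjusted limma p under 0.05. The r of the 7 with Igfbp3 ran from -0.35 to 0.77, so they did not all go the same way. Of 7 Kupffer cell markers 0 were called with Igfbp3 by limma or edgeR, with 0 at an unadjusted limma p under 0.05. Limma also called 0 of 4 cholangiocyte markers with Igfbp3. The summed stellate level ran from 104 to 248.4 with a median of 170, the summed endothelial level from 197.2 to 322 with a median of 233, and no marker of these lists was at 0. With Ghr, 5 stellate and 3 endothelial markers were lower, where 28.2% of all genes were called, 13.9% of all genes being lower. Of 5 hepatocyte markers 3 were higher with Igfbp3 (Alb by 0.29 ± 0.050 SE) and 3 lower with Ghr (Alb by 0.35 on the log2 scale, SE 0.080), and the 4 globin genes among 5 red blood cell genes were higher with Igfbp3 and lower with Ghr. The fifth, Alas2, a heme synthesis gene of red cells named after its values were seen, went the other way, lower with Igfbp3 (-0.43 ± 0.075 SE) and higher with Ghr (0.75 ± 0.092 SE). The part of these cell types in the relations of Ghr and Igfbp3 was not tested.

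Other genes of GH signalling and of the IGF pathway were also set beside the members. The share of all genes called was 28.2% with Ghr, 11.8% with Igf1, 6.56% with Igfals and 4.67% with Igfbp1. It was 15.1% with Igfbp2, 15.4% with Igfbp3, 1.26% with Socs2 and 8.41% with Bcl6. Of 11 tested genes of GH signalling, Jak2, the kinase bound to GHR, was higher with Ghr (0.25 ± 0.083 SE) and Stat5a lower (-0.37 ± 0.114 SE). With Bcl6, 3 were lower, namely Socs3 (-0.35 ± 0.069 SE), Stat5a (-0.11 ± 0.032 SE) and Jak2 (-0.08 ± 0.023 SE). Prlr, the prolactin receptor gene, was higher with Socs2 (0.19 ± 0.045 SE) and with Igfals (0.35 ± 0.098 SE), and Stat5a was lower with Igf1 (-0.51 ± 0.174 SE). Igfbp2 had 2 lower, Jak2 among them, Igfbp3 had 1 higher (Stat5a) and 1 lower (Ptpn1), and Igfbp1, Cish and Stat5b had none. Of 8 tested genes of the IGF pathway, Igf2r, a clearance receptor for IGF2, was higher with Ghr (0.48 ± 0.101 SE) and Irs2 and Igfbp7 lower. The receptor gene Igf1r was higher with Igfbp3 (0.36 ± 0.090 SE) and lower with Igfals (-0.36 ± 0.112 SE). Igfbp5, Igf2r and Insr were lower with Igfbp2, Irs2 was higher with Igfbp1, and Irs1 was higher with Bcl6 (0.19 ± 0.040 SE).

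The animals had been fasted, and 14 genes of fasting and of the insulin-restrained factor FOXO1 were set beside the members. The share of all genes called was 4.67% with Igfbp1, 8.41% with Bcl6, 0.472% with Cish and 11.8% with Igf1. It was 6.56% with Igfals, 15.4% with Igfbp3 and 1.26% with Socs2. With Igfbp1, itself a gene of fasting, 4 of the 14 were higher, led by Fgf21 (0.47 ± 0.132 SE), Pdk4 (0.35 ± 0.089 SE) and Irs2 (0.28 ± 0.072 SE). This count was 2 without library 24. With Bcl6, Angptl4, a lipase inhibitor gene, rose by 0.31 ± 0.034 (SE) and the tyrosine aminotransferase gene Tat by 0.27 ± 0.042 (SE), while Trib3 fell by 0.19 (SE 0.057). The same Tat (-0.36 ± 0.073 SE) and Angptl4 (-0.32 ± 0.073 SE) were lower with Cish, of which 1 was left without library 24. Tat ran from 1157 to 4330 and Angptl4 from 72.7 to 220 over the 50 libraries. With Ghr, where 28.2% of all genes were called, 2 of the 14 were higher, among them the gluconeogenic gene Pck1 (0.46 ± 0.105 SE), and 3 lower. With Igf1, Igfbp3 and Socs2 1 gene was higher in each, and with Igfals 1 was lower. None was called with Igfbp2 or Stat5b by limma or edgeR, with 3 and 5 at an unadjusted limma p under 0.05.

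The labels allowed 2 further comparisons. Animal numbers rose with the library number up to library 30, except that library 8 carries a higher number than library 9, and began again at library 31, so libraries 1 to 30 (n = 28) were compared with libraries 31 to 59 (n = 22), sets whose meaning the labels do not state and whose median depths were 14432604 and 13284110.5 reads. Between the sets 13.5% of 11436 genes were called, and 1 of 10 members, Ghr. Ghr ran from 133.1 to 293 with a median of 212 in libraries 1 to 30 and from 160 to 301 with a median of 233 in libraries 31 to 59, so the sets overlapped widely. The means were 209 ± 46.4 (SD, n = 28) and 243.5 ± 40.2 (SD, n = 22), a difference of 0.24 ± 0.082 (SE) on the log2 scale (limma adjusted p = 0.0470). It was no longer called without library 22, without library 24 or without library 31, or in 4 other alternatives (range of limma adjusted p over these 7, 0.0538 to 0.0925). Igf1 (0.14 ± 0.057 SE, limma adjusted p = 0.0949) and Igfals (0.24 ± 0.103 SE, limma adjusted p = 0.1096) did not pass, nor did the other 7. Called genes were split 808 higher to 734 lower in libraries 31 to 59, but 410 to 894 on plain CPM.

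With the animal number, 14.2% of genes were called and 3 of 10 members. Ghr was lower in animals with higher numbers, by 0.37 on the log2 scale per 100 numbers (SE 0.071, limma adjusted p = 0.000528), and Igfals by 0.30 (SE 0.098, limma adjusted p = 0.0315). Igfbp3 was higher by 0.48 ± 0.107 (SE, limma adjusted p = 0.00197). The numbers fell into 2 clusters, from I114 to I133 (n = 9) and from I174 to I296 (n = 41) as the titles write them, so r is given within each. In the larger cluster r was -0.56 for Ghr, -0.41 for Igfals and 0.53 for Igfbp3. In the smaller one r was -0.42 for Ghr, -0.81 for Igfals and 0.00266 for Igfbp3. Mean Ghr was 260 ± 30.6 (SD, n = 9) in the smaller cluster and 216.4 ± 46.2 (SD, n = 41) in the larger, and mean Igfbp3 was 14.3 ± 4.42 (SD, n = 9) and 18.8 ± 6.01 (SD, n = 41). Igfals was no longer called without the libraries that share an animal number or with the library set as a covariate. The difference of the slope between the library sets was called for 0 of the 10 members by limma (lowest adjusted p = 0.745, 0 at an unadjusted p under 0.05) and for 0.0350% of all genes, 4 in all.

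**Figure D5:**
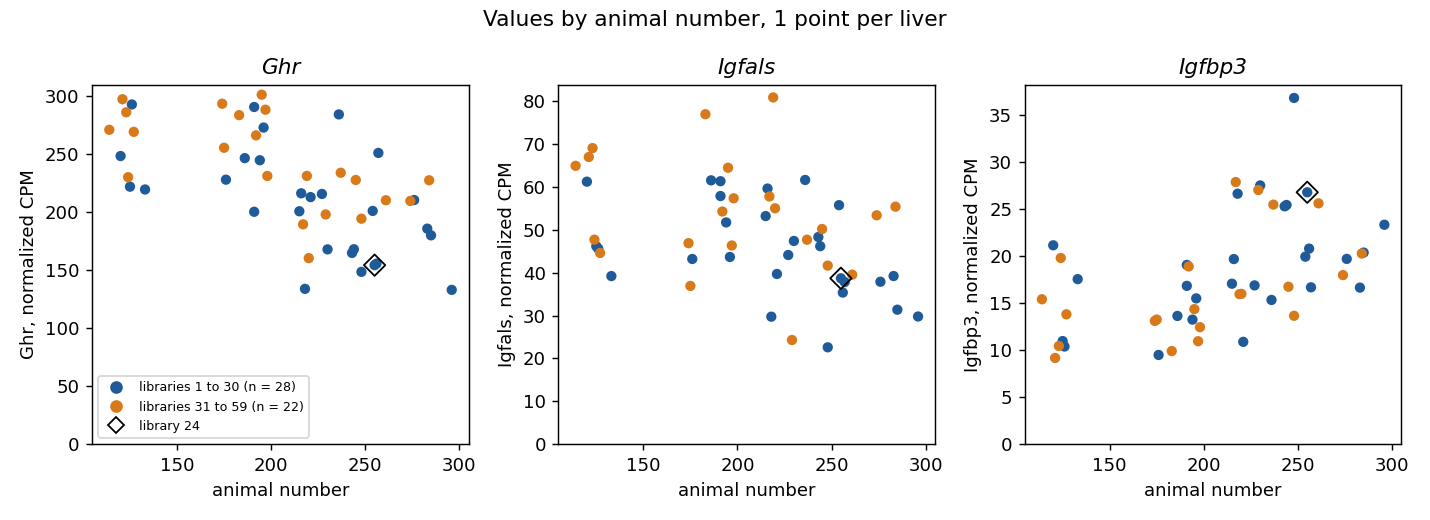
Normalized value (CPM scaled between libraries, linear axis) of Ghr, Igfals and Igfbp3 against the animal number in 50 libraries, 1 point per library, coloured by library set. Ghr and Igfals fall and Igfbp3 rises over the numbers I174 to I296, and the 9 libraries numbered I114 to I133 stand apart on the left.

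Of the male-type genes 12 of 17 were lower with higher animal numbers (median slope -0.54 per 100 numbers, against -0.00116 over all genes) and 0 higher, and of the female-type genes 5 of 13 were higher. These lists therefore moved with the animal number in the same sense as with Igfbp3. Of all genes, 14.2% were called with that number. Of the red blood cell genes the 4 globin genes were higher, Hba-a1 by 0.74 ± 0.145 (SE) per 100 numbers, and Alas2 was lower (-0.30 ± 0.076 SE). Of the other cell type markers 3 of 7 stellate, 2 of 7 sinusoidal endothelial and 2 of 5 hepatocyte markers were higher, and 1 of 2 leukocyte markers was lower by limma but 0 by edgeR. None of the 7 Kupffer cell or 4 cholangiocyte markers was called by limma or edgeR, with 0 and 0 at an unadjusted limma p under 0.05. The part of these cell types in the relation to the animal number was not tested. Between the library sets 0 of the 17 male-type and 0 of the 13 female-type genes were called by limma (4 and 0 at an unadjusted p under 0.05), and 1 male-type gene by edgeR. Limma called 13.5% of all genes between those sets.

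Gm13394 and Eno1b, taken as tags of the segregating alleles on distal chromosomes 6 and 4, were used as further regressors. With Gm13394 0.140% of genes and 0 of 10 members were called by limma, 2 members having an unadjusted p under 0.05 (lowest adjusted p = 0.462). With Eno1b 0.105% of genes and 0 of 10 members were called, 0 at an unadjusted p under 0.05 (lowest adjusted p = 0.514). The edgeR fits called 0 members with either.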

How the data were processed

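RNA-seq was performed on total RNA of liver in 50 libraries with 48 distinct animal numbers, and each library was treated as 1 liver. Per the labels and the study's methods, the authors trimmed the reads (Trim Galore in the labels, another trimmer in the methods), aligned them with HISAT2 to GRCm38.p5, counted reads per gene with HTSeq 0.11.1, removed genes with low counts and normalized with edgeR. The deposited values are a normalized signal: CPM in which each library's size had been rescaled against the others. The column sums ran from 886171 to 1120647. Whole reads were recovered from it (100% of values whole within 0.01 reads, largest deviation 0.000845 reads).

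Positions and exon lengths came from GENCODE M21 (GRCm38). Genes with a mean of at least 1 (11436) were fitted on log2(value + 0.5), in which slopes of low genes are understated, with limma 3.58.1 in R 4.3.3 (2-sided, Benjamini-Hochberg adjustment over all genes tested, threshold 0.05). Regressors were the library set, the animal number, each member, and Gm13394 and Eno1b (taken as tags of alleles on distal chromosomes 6 and 4). Covariation between members used 2-sided permutation p-values from 100000 resamples, and the share of counting error covers counting only. Over the 45 pairs, call status rests on the limma p-values, adjusted over all genes. Only the fits on the library set and on Igf1 were run on simulated counts. Those counts were drawn independently for each gene, unlike the covarying genes here, so that run does not bear on the shares called. Alternatives were a pseudocount of 1 or 0.1, no filter, plain CPM, DESeq2 1.42.0 size factors, edgeR 4.0.16 quasi-likelihood on the whole reads (1647 genes called between the library sets and 1596 with the animal number), covariates (counted reads, share of the 10 highest genes, library set, animal number), and leaving out library 24, the libraries sharing an animal number, and, chosen after seeing the data, libraries 22 and 31. The members and the gene lists (GH signalling, IGF pathway, male-type, female-type, fasting and FOXO1, insulin and feeding, circadian clock, and markers of hepatocytes, sinusoidal endothelial cells, Kupffer cells, stellate cells, cholangiocytes, red blood cells and leukocytes) were chosen with earlier results of these data known. Named genes were the members, the 2 highest and 1 lowest by r with each, and at most 3 per list and fit by size of slope. Some genes that this rule names are not reported here.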

Additional observations from a re-analysis of the deposited data

How the results depend on the processing

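Under the 14 alternatives slopes were compared by direction and side of the threshold, and shares and counts by a fixed ratio. Levels, recomputed in part with a log2-scale mean or the longest transcript, were compared by their SD. Of all these values, 776 stayed within those limits, 27 lost a call, 5 gained one, 56 shares, counts or levels moved and 8 changed sign. The 5 pairs Ghr with Igfbp1 and Igfbp3, Igf1 with Igfals, Igfbp1 with Igfbp2, and Cish with Bcl6 were called in all 14. With the animal number as a covariate 7 pairs were called, 6 of the 11 and 1 gained, Socs2 with Cish. The 5 lost were Ghr with Igf1 and Igfals, Igfals with Igfbp1 and Igfbp3, and Igfbp1 with Igfbp3. With that covariate the share of genes called was 17% with Ghr, 2.53% with Igf1, 0.603% with Igfals, 2.43% with Igfbp1 and 7.42% with Igfbp3. The male-type genes called were then 9 with Igf1, 0 with Igfals, 4 with Igfbp1 and 0 with Bcl6, and the female-type genes lower with Igf1 were 0. With the library set as a covariate the share of genes called was 7.08% with Igf1, 1.84% with Igfbp1, 8.74% with Igfbp2 and 0.717% with Cish, and the male-type genes 3 with Igfbp1 and 7 with Bcl6. With the counted reads as a covariate 7.77% of genes were called between the library sets. With the 10 highest genes' share of reads as a covariate, 5.70% of genes were called with Igf1, 0.883% with Igfbp1, 8.13% with Igfbp3 and 0.262% with Cish, the male-type genes called were 0 with Igfbp1 and 2 with Bcl6, and the female-type genes 2 with Igf1 and 3 with Igfbp1. On plain CPM the share was 7.01% with Igf1, 3.38% with Igfals, 3.27% with Socs2, 1.59% with Cish and 0.175% with Stat5b, the male-type genes 9 with Igf1, 4 with Igfals and 1 with Bcl6, and the female-type genes 2 with Igf1. By edgeR 2 male-type genes were called with Bcl6 and 6 female-type genes with Socs2, and without a filter 10 female-type genes were lower with Ghr. Without library 24 the share was 6.86% with Igf1, 0.551% with Socs2 and 0.140% with Cish, and 1 male-type gene was called with Bcl6. Without library 22 the share with Igfbp1 was 2.41%, and the male-type genes were 7 with Igfals and 5 with Igfbp1, and without library 31 the share with Igfbp1 was 2.29%. Without the libraries sharing an animal number it was 2.40% with Igfbp1 and 0% with Stat5b, and 7, 4 and 2 male-type genes were called with Igfals, Igfbp1 and Bcl6. With the longest transcript as the length, the levels per kilobase were 53.7 for Ghr, 44.96 for Igf1, 464 for Igfbp2, 1.38 for Socs2 and 6.93 for Bcl6. The causes were not tested.

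The library set difference of Socs2 (0.00131 on the log2 scale) changed sign to -0.000732 with a pseudocount of 0.1, -0.0167 on plain CPM, -0.0114 by edgeR, -0.00798 with counted reads, -0.0324 with the share of the 10 highest genes, -0.0183 without library 22 and -0.00780 with the animal number, and the animal number slope of Igfbp2 (0.0601) to -0.0135 without library 31; none passed the threshold. No paired analysis was possible because the libraries form 1 group. The fewest reads behind any member value were 11, for Cish.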

Other observations

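Clock genes were also set beside the members in these livers, which were collected after a fast. The share of all genes called was 28.2% with Ghr, 11.8% with Igf1, 6.56% with Igfals, 15.4% with Igfbp3 and 8.41% with Bcl6. Library 24 had the lowest summed level of the clock genes (137, where the median was 233), and the counts that follow include it. Of 10 circadian genes, 3 were higher and 1 lower with more Ghr, among them Nr1d2, a repressor of the clock (0.75 ± 0.133 SE log2 units per log2 unit of Ghr), and Npas2, an activator (-1.20 ± 0.329 SE). With Igf1 the calls were 2 higher and 2 lower, with Nr1d2 at 1.02 ± 0.213 (SE) and Npas2 at -1.85 ± 0.492 (SE). With Igfbp3 they were 2 higher and 2 lower and in the opposite sense, Npas2 at 0.76 ± 0.229 (SE) and Arntl at 0.43 ± 0.136 (SE). With Bcl6 the period genes Per2 (0.25 ± 0.060 SE) and Per1 (0.18 ± 0.045 SE) were higher and Arntl (-0.20 ± 0.055 SE) lower. With Igfals 1 was higher and 1 lower, and none was called with Igfbp1, Igfbp2, Socs2, Cish or Stat5b by limma or edgeR (2, 0, 1, 2 and 0 at an unadjusted limma p under 0.05).

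Of 7 insulin and feeding genes, Fasn, the fatty acid synthase gene, was lower with Ghr (-0.68 ± 0.173 SE) and higher with Igfbp3 (0.37 ± 0.125 SE), Scd1 was higher with Ghr (0.65 ± 0.231 SE), Acly was lower with Igfbp2 (-0.37 ± 0.082 SE) and Srebf1 lower with Bcl6 (-0.22 ± 0.070 SE). Of 7 Kupffer cell markers 1 was lower with Ghr (Marco) and 1 higher with Igfbp2 (Cd5l). The share of all genes called was 28.2% with Ghr, 15.1% with Igfbp2, 15.4% with Igfbp3 and 8.41% with Bcl6. Of 4 tested cholangiocyte markers 1 was lower with Bcl6 (Sox9), and the 2 tested leukocyte markers were called with no member by limma or edgeR, with 2 at an unadjusted limma p under 0.05 with Socs2 and 1 with Cish.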
